A study of Homo sapiens with 66 samples.

Results

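Among the genes that IFN-α turns on are the effectors, whose products act on viruses or on the infected cell, as opposed to the sensors and transcription factors that start the response. The genes described here are 10 such effectors: MX1 and MX2, RSAD2 and its neighbour CMPK2, IFI6 and IFI27, IFI44 and IFI44L, EPSTI1, and XAF1. They were chosen by name and found by their Ensembl identifiers, with the version removed, in the gene count tables, which hold 57820 genes. All 10 were present in both tables, and all 10 passed the filter on low counts in both RNA-seq studies. No library had a count of 0 for any of them, although the lowest counts in a library were 2 for IFI44L, 5 for IFI27 and 10 for IFI44.

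Type I IFN binds its receptor at the cell surface, the kinases JAK1 and TYK2 become active, and the transcription factor ISGF3, of which STAT2 and IRF9 are subunits, forms and enters the nucleus. ISGF3 binds an element called the ISRE, with repeated GAAA cores, in the promoters of IFN-stimulated genes (ISGs). In the absence of added IFN, a cell can start this program from within when MDA5 (encoded by IFIH1) senses long double-stranded RNA (dsRNA) and IFN-β is made. ADAR, an enzyme that converts adenosine to inosine in paired RNA, and hnRNPC, a nuclear protein that binds U-rich intronic RNA, both limit dsRNA of the cell's own transcripts.

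The cells were THP-1, a human monocytic leukemia line, carrying a Cas9 transgene. In study 1, a STING-deficient clone was nucleofected with nontarget gRNA (CTRL), with gRNAs against GFP, ADAR or hnRNPC, or with ADAR and hnRNPC gRNAs together (ADAR+hnRNPC), and whole-cell RNA was sequenced on days 3, 4 and 5. The last of the 16 groups consisted of CTRL cells of day 4 that had received recombinant IFN-α, and each group had 3 libraries (48 in all). In study 2, a WT clone was nucleofected with nontarget gRNA or with other gRNAs against HNRNPC and ADAR, and on day 4 total and digitonin-soluble (cytosolic) RNA was taken from CTRL, hnRNPC-, ADAR- and ADAR+hnRNPC-targeted cells, with digitonin-insoluble (nuclear) RNA from hnRNPC-targeted cells alone (18 libraries, 2 per group). Each study rests on 1 clone, and all cells, controls included, carried Cas9. The study describes its libraries as coming from independent experiments, 3 in study 1 and 2 in study 2, and the p-values measure the spread between them.

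Gene counts summed to 95107690–152829008 per library in study 1 and 49666958–73873756 in study 2. Levels are given as CPM, the gene's count scaled to the size of its library after adjustment by the trimmed mean of M-values (TMM). HNRNPC RNA was at 310–447 CPM in the libraries of study 1 that received hnRNPC gRNA and at 725–847 CPM in CTRL libraries. ADAR RNA did not separate ADAR-targeted cells (349–395 CPM) from CTRL cells (364–421 CPM), and ADAR is itself an ISG, at 1055–1315 CPM with IFN-α. Of 11 monocytic markers, 9 averaged at least 1 CPM in each study, and none of the T cell, epithelial or erythroid markers did. Among B cell markers, PAX5 reached that level, whereas CD79A stayed at or below 0.269 CPM and MS4A1 at or below 0.041 CPM. PAX5 moved with the effectors, with 2.74–3.38 CPM in CTRL cells of day 4, 18.9–24.1 CPM with IFN-α and 34.4–66.8 CPM after combined targeting on day 5. Its part in the results below was not tested.

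The genes lie on 6 chromosomes, and 3 pairs among them are neighbours. In GRCh37 coordinates (GENCODE annotation), MX1 (ENSG00000157601.9) occupies chr21:42791947-42841998 and MX2 (ENSG00000183486.8) chr21:42733926-42781320, both on the plus strand. RSAD2 (ENSG00000134321.7, chr2:7005688-7038370, plus strand) and CMPK2 (ENSG00000134326.7, chr2:6980701-7006766, minus strand) run away from each other, and 351 bp of their exons overlap on opposite strands. IFI44L (ENSG00000137959.11, chr1:79085587-79111830) and IFI44 (ENSG00000137965.6, chr1:79115481-79129763) follow each other on the plus strand. IFI6 (ENSG00000126709.10) lies at chr1:27992575-27998723 on the minus strand, IFI27 (ENSG00000165949.8) at chr14:94571182-94583032 on the plus strand, EPSTI1 (ENSG00000133106.10) at chr13:43460524-43566407 on the minus strand, and XAF1 (ENSG00000132530.12) at chr17:6658766-6678966 on the plus strand. The strand setting of the gene counting was not given in the sources used here. Reads in the overlap of RSAD2 and CMPK2 therefore may not be told apart, nor those of MX1 and the opposite gene ENSG00000228318, which share 436 bp of exon. The level of ENSG00000228318 was 0.0172 CPM in CTRL cells of day 4 and 6.85 CPM in ADAR+hnRNPC-targeted cells of day 5, which is small beside that of MX1.

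Promoters of these genes were searched for the core of the ISRE, because all 10 genes rose together in the comparisons that follow. The letters searched were GAAANNGAAA, on both strands and allowing overlap, in RefSeq windows of GRCh38.p14 that run from 250 bases before to 50 bases after each transcript start. The motif occurred in 3.57% of all 35116 windows (1255), and 0.259% held 2 or more copies. Of the 9 genes with a window, 7 had a window with the motif, as did 4.38% of all 27305 genes with a window. By windows, the motif was in 10 of the 17 of these genes. MX2 had no window. In a single window, IFI6 had 3 copies, IFI44L and IFI27 had 2, and EPSTI1, MX1, IFI44 and RSAD2 had 1, and MX1 had a different copy in each of 2 separate windows. The letters were not in the windows of CMPK2 and XAF1. The windows of the genes with the most copies, the window of EPSTI1, and the first MX1 window in the table, MX1 being the gene that reached the highest level, are shown 5′ to 3′ along the gene, with the motif on either strand in capitals.
IFI6 promoter, chr1:27672143-27672442, minus strand: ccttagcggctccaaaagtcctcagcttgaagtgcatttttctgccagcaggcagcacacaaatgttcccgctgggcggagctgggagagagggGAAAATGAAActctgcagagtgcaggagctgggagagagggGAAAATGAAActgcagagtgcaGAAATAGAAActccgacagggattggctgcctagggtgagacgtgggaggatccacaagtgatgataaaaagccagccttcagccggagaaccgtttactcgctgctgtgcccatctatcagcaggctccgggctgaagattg
IFI44L promoter, chr1:78620198-78620497, plus strand: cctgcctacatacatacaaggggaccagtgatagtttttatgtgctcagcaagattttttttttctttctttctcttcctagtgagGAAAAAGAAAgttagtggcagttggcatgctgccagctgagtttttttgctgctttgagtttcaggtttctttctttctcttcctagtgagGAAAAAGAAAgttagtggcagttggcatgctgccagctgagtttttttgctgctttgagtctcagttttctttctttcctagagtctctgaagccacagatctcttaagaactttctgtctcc
IFI27 promoter, chr14:94110486-94110785, plus strand: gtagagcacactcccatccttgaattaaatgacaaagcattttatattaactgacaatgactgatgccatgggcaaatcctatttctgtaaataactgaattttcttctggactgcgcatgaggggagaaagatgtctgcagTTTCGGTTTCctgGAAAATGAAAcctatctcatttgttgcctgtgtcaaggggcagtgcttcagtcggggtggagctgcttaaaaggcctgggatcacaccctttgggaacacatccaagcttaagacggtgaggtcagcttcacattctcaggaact
EPSTI1 promoter, chr13:42992192-42992491, minus strand: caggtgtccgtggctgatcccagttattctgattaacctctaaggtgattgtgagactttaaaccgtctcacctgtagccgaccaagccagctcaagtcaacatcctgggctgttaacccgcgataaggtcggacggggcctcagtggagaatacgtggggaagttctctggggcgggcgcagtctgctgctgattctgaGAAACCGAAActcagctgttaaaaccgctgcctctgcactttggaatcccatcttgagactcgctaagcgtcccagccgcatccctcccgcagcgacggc
MX1 promoter, chr21:41420308-41420607, plus strand: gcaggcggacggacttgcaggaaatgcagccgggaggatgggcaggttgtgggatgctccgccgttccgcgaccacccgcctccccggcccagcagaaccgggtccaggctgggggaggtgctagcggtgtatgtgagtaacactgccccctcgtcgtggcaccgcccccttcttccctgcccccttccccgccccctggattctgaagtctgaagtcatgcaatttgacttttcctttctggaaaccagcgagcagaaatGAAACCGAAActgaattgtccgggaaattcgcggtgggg
The 3 copies of IFI6 began 156, 115 and 93 bases before the start, and the copy in the MX1 window shown began 11 bases after it. A match of letters is a description of the window and not a measurement of ISGF3 binding.

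Treatment with recombinant IFN-α gave a reference response of these genes in the STING-deficient clone. All 10 rose past the threshold used throughout for higher expression, a log2 fold change of at least 1 with an adjusted p of at most 0.05, by the quasi-likelihood test of edgeR, adjusted after Benjamini and Hochberg over the 13193 genes tested. Of all genes tested, 1.19% passed in this direction. IFI27, IFI44 and IFI44L, low in CTRL cells, passed the filter on low counts through the groups in which they were high. Their calls with IFN-α and after combined targeting are therefore not independent of the filter, and shares of all genes are no fair measure for them. The fold changes spanned 3.21 ± 0.20 (log2, SE) for RSAD2 to 11.27 ± 0.39 for IFI44L, and their median was 6.32 (all genes, -0.00). In bulk RNA, a change in the share of cells that express a gene cannot be told apart from a change in its RNA per cell.

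MX1 and MX2 encode dynamin-like GTPases. MxA, the MX1 product, blocks influenza and other viruses in the cytoplasm, and MxB, the MX2 product, acts at nuclear pores against HIV and herpesviruses. MX1 was at 4.71, 4.74 and 4.40 CPM in CTRL cells of day 4 and at 1149, 1335 and 1279 CPM with IFN-α, a log2 fold change of 8.09 ± 0.23 (edgeR, adjusted p = 5.75e-26). MX2 started higher, at 13.3, 13.5 and 12.6 CPM, and reached 203, 225 and 221 CPM (log2 fold change, 4.05 ± 0.12). In neither gene did the groups come near each other.

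RSAD2 encodes viperin, a radical SAM enzyme that makes a chain-terminating CTP analog, and CMPK2 encodes a mitochondrial UMP/CMP kinase whose gene sits head to head with it. RSAD2 rose from 6.66, 7.25 and 7.81 CPM to 61.2, 66.3 and 73.5 CPM with IFN-α, the smallest log2 fold change of the 10 (adjusted p = 4.99e-16 by edgeR). CMPK2 rose from 24.7, 26.2 and 27.8 CPM to 345, 404 and 407 CPM, a log2 fold change of 3.88 ± 0.13.

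IFI6 and IFI27 encode small hydrophobic proteins of the same family. IFI6 protects the endoplasmic reticulum from flavivirus replication, and IFI27 is found in mitochondria and at the nuclear envelope. IFI6 was at 5.47, 5.13 and 7.46 CPM in CTRL cells of day 4 and at 519, 576 and 360 CPM with IFN-α (log2 fold change, 6.33 ± 0.21). IFI27 was almost silent in CTRL cells, at 0.156, 0.160 and 0.112 CPM, and rose to 256, 279 and 282 CPM (10.90 ± 0.38).

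IFI44 and IFI44L are neighbouring paralogs, and both products have been described as feedback regulators as well as antiviral proteins. Their CTRL levels on day 4 were 0.304, 0.313 and 0.283 CPM for IFI44 and 0.120, 0.300 and 0.165 CPM for IFI44L. With IFN-α, IFI44 was at 177, 158 and 169 CPM and IFI44L at 521, 488 and 493 CPM. EPSTI1 encodes a stromal interaction protein that is also IFN-inducible in myeloid cells, and XAF1 an antagonist of the apoptosis inhibitor XIAP. EPSTI1 rose from 1.5, 1.09 and 1.35 CPM to 96.2, 108 and 107 CPM (6.31 ± 0.25 on the log2 scale), and XAF1 from 16.5, 16 and 17 CPM to 195, 174 and 177 CPM (3.46 ± 0.13).

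**Figure D1:**
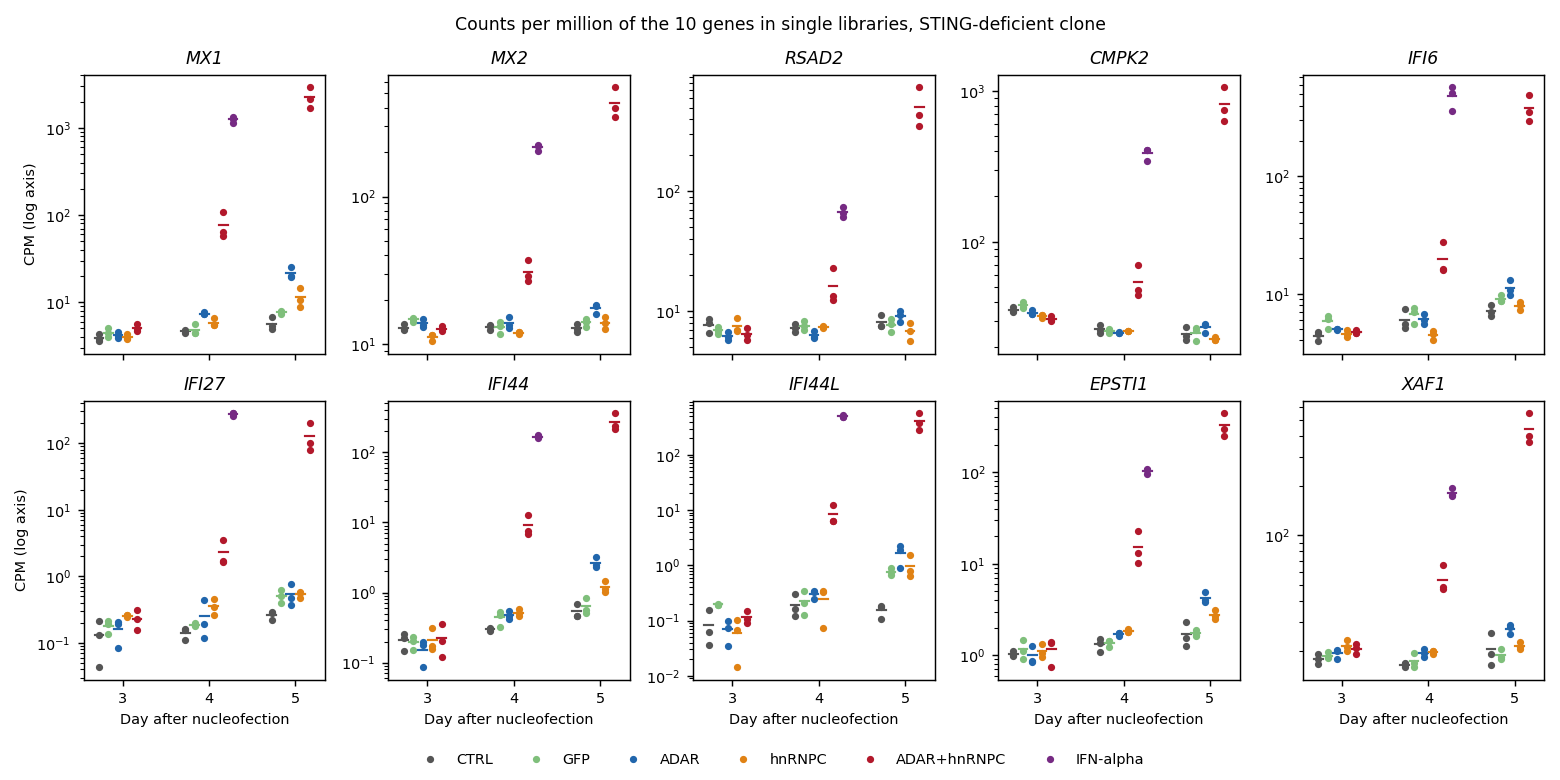
Level of each of the 10 genes (CPM, log axis) by day after nucleofection in study 1, with 1 point per library and a bar at the mean of 3 libraries, for CTRL cells, CTRL cells with IFN-α, and cells that received GFP, ADAR, hnRNPC or both of the latter gRNAs. ADAR+hnRNPC-targeted cells lie among the other groups on day 3, above every CTRL library on day 4, and on day 5 above the IFN-α libraries for RSAD2 (350–745 CPM) and below them for IFI27 (77.8–200 CPM), while MX1 spans 1712 to 2929 CPM.

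Combined loss of ADAR and hnRNPC raised all 10 genes without added IFN-α, and did so between days 3 and 5. On day 3, none was called by edgeR, while 0.947% of all genes were higher. None had an unadjusted p under 0.05, and neither voom nor DESeq2 called any. On day 4, all 10 were called (3.9% of all genes), with log2 fold changes between 1.05 ± 0.12 for CMPK2 and 5.38 ± 0.38 for IFI44L and a median of 2.64. On day 5, all 10 were called again (10.8% of all genes), between 4.43 ± 0.14 for XAF1 and 11.34 ± 0.40 for IFI44L, with a median of 6.79. The all-gene medians were 0.02 and 0.05. The limit given above for IFI27, IFI44 and IFI44L, which passed the filter through such groups, holds for these shares too. No library of ADAR+hnRNPC-targeted cells on days 4 and 5 overlapped a CTRL library of its day in any of the 10 genes, where 32.1% and 42.1% of all genes tested were likewise above CTRL in every library. On day 3, this held for 1 of the 10, against 23.5% of all genes.

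MX1 showed the course at the highest level. It was at 4.89, 4.69 and 5.62 CPM on day 3, at 57.9, 63.2 and 109 CPM on day 4 and at 1712, 2163 and 2929 CPM on day 5, while CTRL cells of day 5 had 5.31, 4.87 and 6.84 CPM. The log2 fold change was 4.06 ± 0.20 on day 4 and 8.64 ± 0.23 on day 5. MX2 reached 26.9, 28.9 and 37.2 CPM on day 4 and 347, 396 and 551 CPM on day 5, against 12.1, 12.7 and 13.8 CPM in CTRL cells of day 5 (5.07 ± 0.13 on day 5).

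RSAD2 moved late and far. On day 4 it was at 12.5, 13.4 and 23.0 CPM (log2 fold change, 1.17 ± 0.19; edgeR, adjusted p = 2.04e-06). On day 5 it was at 350, 436 and 745 CPM, against 7.48, 7.46 and 9.25 CPM in CTRL cells (5.98 ± 0.22). CMPK2 went from 44.6, 48.1 and 69.8 CPM to 636, 750 and 1060 CPM over the same day (1.05 and 5.06 ± 0.14 against CTRL).

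IFI6 was at 15.9, 16.3 and 27.4 CPM on day 4 and at 296, 354 and 494 CPM on day 5, and IFI27 at 1.68, 1.66 and 3.57 CPM and then at 77.8, 102 and 200 CPM. IFI44 was at 7.55, 6.93 and 13.0 CPM on day 4 and at 214, 240 and 361 CPM on day 5. IFI44L was at 6.36, 6.40 and 12.4 CPM and then at 284, 370 and 567 CPM. EPSTI1 rose from 10.3, 13.2 and 22.5 CPM to 252, 296 and 442 CPM, and XAF1 from 47.1, 48.5 and 66.1 CPM to 368, 402 and 551 CPM. In all 10 genes and on both days, the replicate 3 library of ADAR+hnRNPC-targeted cells was the highest of the 3. Without it, all 10 genes were still called on day 5, and on day 4 between 8 and 10 were, over all libraries left out in turn.

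The change in response from day to day was itself tested, each response being taken against the CTRL cells of its day, with a call at an adjusted p of at most 0.05 and no fold threshold. From day 3 to day 4 the response grew in all 10 genes (16.9% of all genes changed), by 1.23 ± 0.17 (CMPK2) to 4.95 ± 1.2 (IFI44L) on the log2 scale. From day 4 to day 5 it grew in all 10 again (37.6% of all genes changed), by 2.72 ± 0.17 (XAF1) to 5.96 ± 0.77 (IFI44L). RSAD2, which had gained 1.43 ± 0.27 from day 3 to day 4, gained 4.81 ± 0.27 from day 4 to day 5. Both steps use the day 4 libraries.

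**Figure D2:**
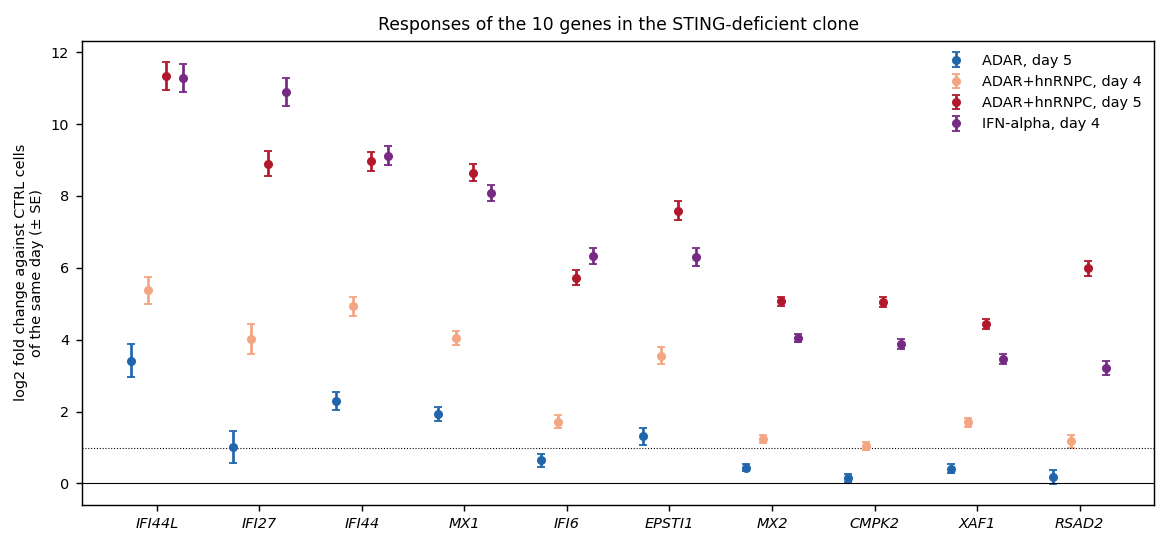
Log2 fold change ± SE against CTRL cells of the same day (edgeR, 3 libraries per group) for each gene in ADAR-targeted cells of day 5, ADAR+hnRNPC-targeted cells of days 4 and 5 and IFN-α–treated cells of day 4, with a dotted line at the threshold of 1. RSAD2 is the gene whose IFN-α value (3.21) lies farthest below its day 5 value in ADAR+hnRNPC-targeted cells (5.98), and IFI27 the gene whose IFN-α value (10.90) lies farthest above it (8.90).

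Targeting ADAR alone raised 4 of the 10 genes on day 5, when 0.296% of all genes were higher. IFI44L was at 2.21, 1.93 and 0.913 CPM, against 0.179, 0.187 and 0.107 CPM in CTRL cells (log2 fold change, 3.42 ± 0.46; edgeR, adjusted p = 4.52e-06). IFI44 was at 3.17, 2.44 and 2.32 CPM, against 0.460, 0.470 and 0.684 CPM (2.29 ± 0.25; adjusted p = 1.05e-07). MX1 was at 25.4, 19.5 and 20.2 CPM, above all 3 CTRL libraries (1.94 ± 0.18; adjusted p = 4.12e-09), and EPSTI1 at 4.90, 3.85 and 3.96 CPM, against 1.26, 1.55 and 2.29 CPM (1.31 ± 0.23; adjusted p = 0.000314). These 4 genes and IFI27, whose value was 1.02 ± 0.45 (adjusted p = 0.121), were the 5 with the lowest level per kilobase in CTRL cells of days 4 and 5.

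Among the remaining genes, IFI6 (0.65), MX2 (0.44) and XAF1 (0.41) passed the p threshold in ADAR-targeted cells of day 5 (adjusted p = 0.0154, 0.00835 and 0.024 by edgeR) but not the fold threshold. RSAD2 and CMPK2 had log2 fold changes of 0.19 ± 0.19 and 0.15 ± 0.12 and passed neither. In 7 of the 10 genes every ADAR-targeted library of day 5 lay above every CTRL library, as in 19.5% of all genes. Over the 10 genes the median log2 fold change was 0.83, and 0.02 over all genes tested.

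On days 3 and 4, edgeR called none of the 10 genes in ADAR-targeted cells, where 0% and 0.0682% of all genes were higher. The number with an unadjusted p under 0.05 was 0 on day 3 and 1 on day 4, and voom and DESeq2 called none on either day. The 1 on day 4 was MX1, at 7.70, 7.23 and 7.23 CPM (log2 fold change, 0.68 ± 0.19; adjusted p = 0.0632). The growth of the ADAR response from day 3 to day 5 was called for 2 of the 10 genes (0.114% of all genes): MX1, by 1.84 ± 0.27, and IFI44, by 2.74 ± 0.57. This count fell to 1 without replicate 1 or 3 of CTRL cells of day 3, replicate 1 or 2 of CTRL cells of day 5, replicate 2 or 3 of ADAR-targeted cells of day 3 or replicate 1 of ADAR-targeted cells of day 5.

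Targeting hnRNPC alone had its largest values in IFI44L, IFI44 and IFI27. On day 3, edgeR called none of the 10 (0.637% of all genes were higher), 1 gene had an unadjusted p under 0.05, and voom and DESeq2 called none. On day 4, IFI27 was called (1.69% of all genes), at 0.347, 0.462 and 0.261 CPM against 0.156, 0.160 and 0.112 CPM (log2 fold change, 1.33 ± 0.53; edgeR, adjusted p = 0.0315). This call was lost without any 1 of the CTRL libraries of day 4, or without replicate 1 or 2 of hnRNPC-targeted cells. IFI6 on that day fell by 0.43 on the log2 scale with an adjusted p of 0.0478, short of the fold threshold.

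On day 5, 3 genes were called in hnRNPC-targeted cells (4.61% of all genes): IFI44L at 0.781, 0.642 and 1.51 CPM (2.62 ± 0.48; edgeR, adjusted p = 1.12e-05), IFI44 at 1.10, 1.02 and 1.44 CPM (1.13 ± 0.27; 0.000347) and IFI27 at 0.556, 0.468 and 0.590 CPM (1.02 ± 0.43; 0.0354). The share of the 10 genes is above that of all genes, but the count fell to 1 without replicate 3 of hnRNPC-targeted cells of day 5, and over all libraries left out it ranged from 1 to 4. MX1 was at 10.7, 8.91 and 14.4 CPM, above every CTRL library, as were 5 of the 10 genes and 36.3% of all genes. Its log2 fold change of 1.00 ± 0.18 lay just below the threshold before rounding. With GFP gRNA on day 5, MX1 was at 7.97, 7.27 and 7.80 CPM, likewise above every CTRL library. IFI27 was not called with voom (adjusted p = 0.242), nor without the filter (0.96) or with only the groups compared (just below 1), which each left IFI44L and IFI44. EPSTI1 had a value of 0.70 with an adjusted p of 0.00836. RSAD2, CMPK2, MX2, IFI6 and XAF1 had values between -0.25 and 0.14. The growth of the hnRNPC response from day 3 to day 5 was called for IFI44L (3.11 ± 1.2) and MX1 (0.96 ± 0.27), beside 49.8% of all genes, and for 1 of them without replicate 3 of CTRL cells of day 3, replicate 2 of hnRNPC-targeted cells of day 3 or replicate 3 of hnRNPC-targeted cells of day 5.

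The gRNA against GFP, the other control, called no effector on days 3 and 4 (0.0227% and 0% of all genes were higher). On day 3, 1 of the 10 had an unadjusted p under 0.05 and on day 4 none, and voom and DESeq2 called none. On day 5, IFI44L was called (0.227% of all genes), at 0.660, 0.880 and 0.756 CPM (log2 fold change, 2.28 ± 0.52; edgeR, adjusted p = 0.00667). These levels overlap the range of hnRNPC-targeted cells of day 5 and lie below 0.913 CPM, the lowest ADAR-targeted library. Against GFP-targeted in place of CTRL cells, hnRNPC targeting called 0 of the 10 on days 4 and 5, ADAR targeting on day 5 called IFI44, EPSTI1 and MX1, and combined targeting called all 10 on days 4 and 5.

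Whether the combined effect exceeded the sum of the single effects was tested by the interaction of ADAR and hnRNPC targeting in the 12 libraries of each day. On day 3 the interaction was called for none of the 10 (0% of all genes) by edgeR, voom or DESeq2, and none had an unadjusted p under 0.05. On day 4 it was called for 9 (8.4% of all genes), from 1.15 ± 0.18 for CMPK2 to 4.44 ± 0.69 for IFI44L on the log2 scale, and IFI27 had a value of 1.87 ± 0.67 (adjusted p = 0.105 by edgeR). On day 5 it was called for all 10 (49.6% of all genes, in either direction), from 3.95 ± 0.22 for XAF1 to 6.86 ± 0.75 for IFI27. RSAD2 and CMPK2, which neither single targeting moved past the threshold in study 1, had interaction terms of 6.05 ± 0.33 and 5.03 ± 0.21 on day 5.

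The response of ADAR+hnRNPC-targeted cells and that to IFN-α differed in size from gene to gene. On day 5, 7 of the 10 genes differed between the responses, a share like that of all genes (64%). The count was 6 or 7 with any library left out. RSAD2 exceeded its IFN-α response by 2.78 ± 0.26 on the log2 scale (edgeR, adjusted p = 1.97e-11), EPSTI1 by 1.28 ± 0.32, CMPK2 by 1.19 ± 0.17, MX2 by 1.02 ± 0.15 and XAF1 by 0.97 ± 0.17. The members of the IFI6 and IFI27 family went the other way, with differences of -0.60 ± 0.24 (adjusted p = 0.031) and -2.0 ± 0.60 (adjusted p = 0.00366). The IFI6 call was lost with voom (-0.61; adjusted p = 0.059) and when only the groups compared entered the fit (-0.62; adjusted p = 0.0825 by edgeR), each of which left 6 calls. IFI6 was also not called without replicate 1 or 2 of CTRL cells of day 4 or of IFN-α–treated cells. The same held without replicate 3 of CTRL cells of day 5 or replicate 1 of ADAR+hnRNPC-targeted cells of day 5.

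MX1 (0.56 ± 0.25), IFI44 (-0.16 ± 0.38) and IFI44L (0.06 ± 0.69) did not pass in this comparison, with adjusted p of 0.0524, 0.73 and 0.942 by edgeR. In levels, the 3 RSAD2 libraries of day 5 (350–745 CPM) lay above all IFN-α libraries (61.2–73.5 CPM), and the 3 IFI27 libraries (77.8–200 CPM) below all of them (256–282 CPM). On day 4, all 10 genes were below their IFN-α response (61.7% of all genes differed), by -1.75 ± 0.12 (XAF1) to -6.88 ± 0.30 (IFI27). IFN-α–treated cells were harvested on day 4 and not on day 5, and the day 5 difference therefore spans a day.

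Dividing by the length of the canonical transcript allows an approximate comparison between the genes. Reads were counted over all exons of a gene, and reads in other exons can raise some genes more than others. All exons span 17984 bp in MX1, 4135 bp in IFI27 and 936 bp in IFI6, against canonical transcripts of 2776, 716 and 812 bp. In CTRL cells of day 4, the order by mean CPM per kilobase was CMPK2 (8.48), IFI6 (7.41), XAF1 (4.83), MX2 (3.85), RSAD2 (2.13), MX1 (1.66), EPSTI1 (0.423), IFI27 (0.199), IFI44 (0.178) and IFI44L (0.0334). The ranges of the libraries overlapped between CMPK2 and IFI6 and between IFI27 and IFI44, and no other neighbours in the order overlapped. With IFN-α, IFI6 (598), MX1 (452) and IFI27 (380) led and RSAD2 was last (19.7), with overlap between IFI6 and MX1. In ADAR+hnRNPC-targeted cells of day 5, MX1 led (817), followed by IFI6 (469), CMPK2 (263), IFI27 (177), IFI44 (162), RSAD2 (150), XAF1 (129), MX2 (127), EPSTI1 (106) and IFI44L (69.8). From CMPK2 downward each neighbouring pair overlapped.

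The genes of the pathway around these effectors were read from a list of 44, of which 41 were tested. They comprise the ligands, receptors, kinases and ISGF3 subunits, the dsRNA sensors, and other effectors such as the OAS and IFIT families and ISG15 with its partners. With IFN-α, 32 of the 41 were higher (median log2 fold change, 3.46), and combined targeting raised 3, 25 and 33 on days 3, 4 and 5 (median on day 5, 4.2). The numbers on these days were 0, 3 and 10 with ADAR gRNA alone and 1, 3 and 6 with hnRNPC gRNA alone. With GFP gRNA none was higher on any day, and in none of these comparisons was any of the 41 called lower.

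ISGF3 subunits were among the genes that rose. In ADAR+hnRNPC-targeted cells of day 5, STAT2 rose by 2.57 ± 0.11 on the log2 scale and IRF9 by 2.97 ± 0.33, compared with 1.71 ± 0.11 and 2.58 ± 0.33 with IFN-α. USP18, which removes ISG15 and blocks the IFN receptor, rose by 6.37 ± 0.22 and 4.85 ± 0.21 in these conditions. In ADAR-targeted cells of day 5, STAT2 (0.11 ± 0.11; edgeR, adjusted p = 0.526) did not pass, while ISG15 (1.14 ± 0.18) and IFIT1 (2.74 ± 0.34) were called. IFNB1, which encodes IFN-β and fell under the filter on low counts in study 1, was at 0.757, 0.773 and 1.26 CPM after combined targeting on day 4 and at 13.3, 13.6 and 28.6 CPM on day 5. IFNB1 was at 0, 0 and 0.0389 CPM in IFN-α–treated cells and at 0.190, 0.0593 and 0.350 CPM in ADAR-targeted cells of day 5.

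Over the means of the 16 groups of study 1, the genes whose level on the log2 scale was most like the mean of the 10 effectors were OAS2 and OAS3 (Pearson's r = 0.996 each), OAS1 and ISG15 (0.993 each) and IFITM1 (0.992). Among the effectors themselves, MX1 was most like the mean of the other members (0.997) and CMPK2 (0.941) and RSAD2 (0.942) least. These are descriptions over groups that share a clone and, on each day, a control.

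The nearest neighbours outside the set were compared as a local background. NRIR, a long noncoding RNA 106 bp from CMPK2 on the same strand, rose with IFN-α (log2 fold change, 4.11 ± 0.27) and after combined targeting by day 5 (4.70 ± 0.28), and had a value of -0.01 in ADAR-targeted cells of day 5. Of 14 neighbouring genes tested, FGR (1.21) and DNAJB4 (1.18) also passed as higher after combined targeting on day 5, and MED31 (-1.07) and GET1 (-1.70) were lower past the same fold. IFI27L1 and IFI27L2, paralogs on either side of IFI27, had values of -0.10 and 0.18 in that comparison, in which IFI27 rose by 8.90.

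In the WT clone, the same effectors rose on day 4 with other gRNAs, at higher starting levels. In total RNA of CTRL cells MX1 was at 75.3 and 61.9 CPM and IFI44L at 10.4 and 10.1 CPM. Clone, gRNAs and experiment all differ from study 1, so the difference in starting level cannot be told apart from any of these. ADAR+hnRNPC targeting raised all 10 genes in total RNA (4% of 13650 genes tested) and in cytosolic RNA (7.02%). In total RNA the log2 fold changes ranged from 1.42 ± 0.22 (MX2) to 3.26 ± 0.54 (IFI44L), and in cytosolic RNA from 1.32 ± 0.22 (MX2) to 3.77 ± 0.40 (IFI6).

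MX1 in total RNA of ADAR+hnRNPC-targeted cells was at 704 and 405 CPM (3.02 ± 0.41; edgeR, adjusted p = 0.000122), RSAD2 at 114 and 57.7 CPM against 14.5 and 11.9 CPM (2.70 ± 0.38), and IFI44L at 129 and 68.9 CPM. In all 10 genes and in each targeted group of total and cytosolic RNA, replicate 1 was above replicate 2. The count in total RNA was 9 or 10 with any library left out. The single library that this leaves in a group was assumed to vary like those of the other groups.

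ADAR targeting alone raised 6 of the 10 genes in total RNA of the WT clone (1.66% of all genes). IFI44 was at 39.1 and 23.7 CPM against 9.22 and 6.86 CPM (1.96 ± 0.39; edgeR, adjusted p = 0.00584), and MX1 at 307 and 187 CPM (1.85 ± 0.39; 0.00874). EPSTI1 (1.85), RSAD2 (1.44), CMPK2 (1.01) and XAF1 (1.01) were also called, whereas IFI6, IFI44L, IFI27 and MX2 had values of 1.03, 1.46, 1.06 and 0.63 with adjusted p between 0.0614 and 0.129. Without replicate 2 of CTRL total RNA or replicate 1 of ADAR-targeted total RNA, 0 of the 10 were called. In cytosolic RNA 7 were called (4.34% of all genes), led by IFI6 (2.71 ± 0.39; adjusted p = 0.000162) and MX1 (2.21 ± 0.40), and 5 to 7 with any library left out.

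hnRNPC targeting alone called none of the 10 genes in total or cytosolic RNA of the WT clone (0.212% and 0.286% of all genes) by edgeR, voom or DESeq2. In each compartment 4 of the 10 had an unadjusted p under 0.05, and the replicates lay far apart, with MX1 at 181 and 97.5 CPM in total RNA (1.02 ± 0.39; adjusted p = 0.11 by edgeR). Of the 41 pathway genes tested, 16, 1 and 30 were higher in total RNA and 22, 0 and 31 in cytosolic RNA of ADAR-, hnRNPC- and ADAR+hnRNPC-targeted cells.

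**Figure D3:**
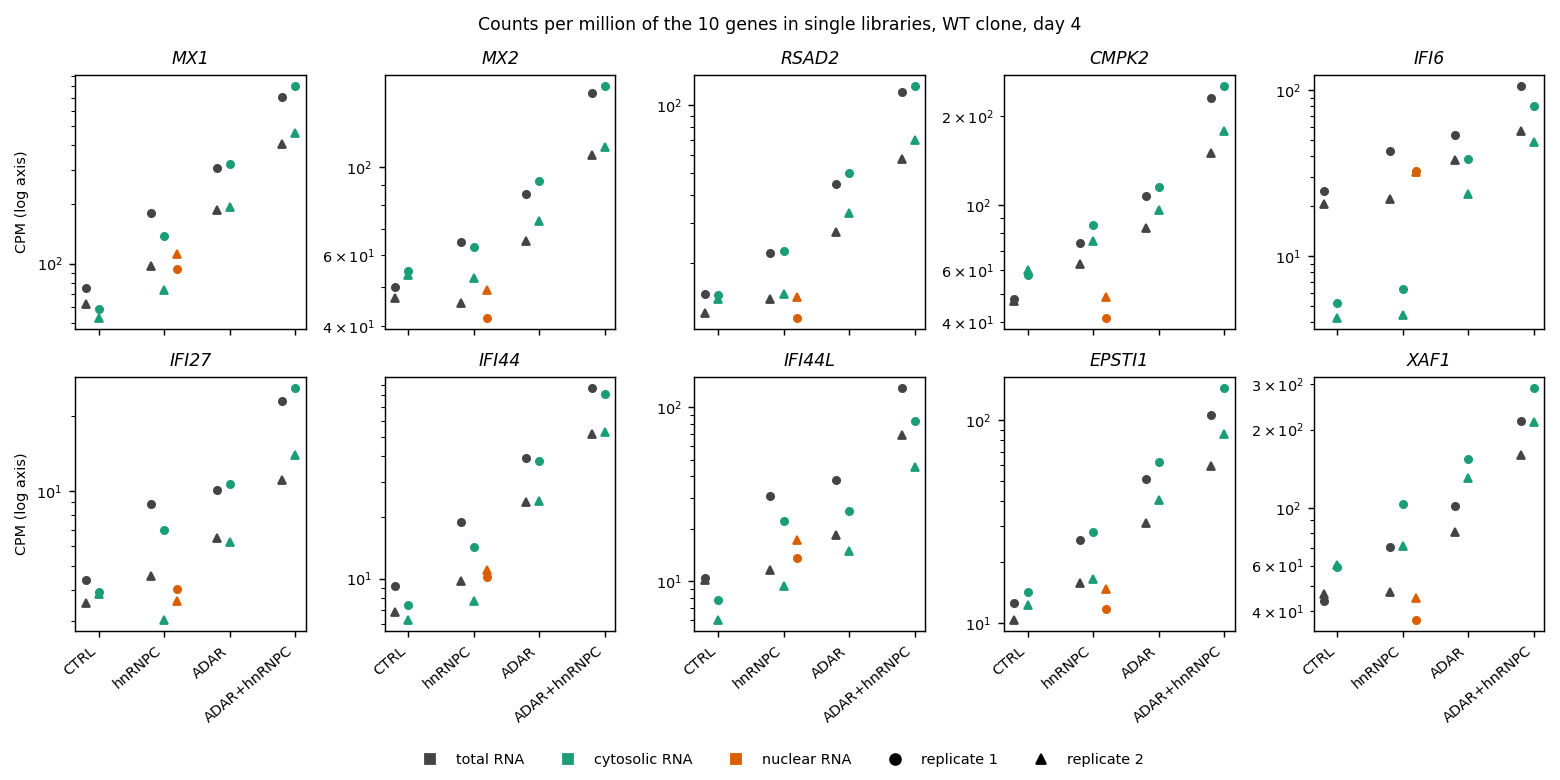
Level of each gene (CPM, log axis) in total, cytosolic and nuclear RNA of the WT clone on day 4, with 1 point per library (circle, replicate 1; triangle, replicate 2). IFI6 is the gene whose CTRL cytosolic libraries (5.22 and 4.25 CPM) lie far below its total RNA libraries (24.7 and 20.5 CPM), and in ADAR+hnRNPC-targeted cells the gap narrows to 81.0 and 48.5 against 106 and 57.0 CPM.

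In the digitonin fractions, IFI6 was lower in cytosolic than in total RNA. Over the 4 treatment groups, cytosolic against total RNA passed the threshold of a 1 log2 change in either direction for 1 of the 10, a share like that of all genes (10.5%). This was IFI6, with a value of -1.44 ± 0.18 (edgeR, adjusted p = 6e-06). The next in size with a passing p was XAF1, at 0.51 ± 0.11 (adjusted p = 0.000806), in the direction of the cytosol. In hnRNPC-targeted cells, for which nuclear RNA was taken, IFI6 was at 6.37 and 4.41 CPM in cytosolic and at 32.4 and 32.2 CPM in nuclear RNA (-2.59 ± 0.38; adjusted p = 2.99e-05), and XAF1 at 104 and 71.0 CPM against 37.1 and 44.9 CPM (1.09 ± 0.22; 0.000533). These were the 2 genes called (26.1% of all genes), CMPK2 having a value of 0.84 ± 0.20 (adjusted p = 0.00175). Without replicate 1 of the cytosolic or of the nuclear RNA the count was 1.

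The gap between cytosolic and total IFI6 RNA was narrower after combined targeting than in CTRL cells, whereas in hnRNPC-targeted cells it was not. IFI6 was at 5.22 and 4.25 CPM in cytosolic and 24.7 and 20.5 CPM in total RNA of CTRL cells, at 6.37 and 4.41 against 42.9 and 22.1 CPM in hnRNPC-targeted cells, at 38.4 and 23.9 against 54.1 and 38.1 CPM in ADAR-targeted cells, and at 81.0 and 48.5 against 106 and 57.0 CPM in ADAR+hnRNPC-targeted cells. The response to ADAR+hnRNPC targeting was larger in cytosolic than in total RNA by 1.92 ± 0.51 on the log2 scale (edgeR, adjusted p = 0.0485), and no other gene of the 10 was called (4.34% of all genes). The same difference for ADAR or hnRNPC targeting alone was not tested. Without replicate 1 of CTRL total RNA, replicate 2 of ADAR+hnRNPC-targeted total RNA, either CTRL cytosolic library or replicate 1 of ADAR+hnRNPC-targeted cytosolic RNA, IFI6 was not called. LINC02574, which shares 216 bp of exon with IFI6 on the same strand, averaged at most 0.233 CPM in the groups of both studies examined for it.

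Intronic reads of the effectors, counted in study 1, rose with the genes. Of 94 introns annotated in the 10 genes, 10 of which also lie in another gene, 22 introns of 8 genes passed the filter of an average log2 CPM of 1, and none of EPSTI1 or IFI27 did. All 22 rose with IFN-α (0.792% of all introns tested), by 2.09 to 10.55 on the log2 scale, and all 22 after combined targeting on day 5 (6.28%), by 3.23 to 12.68. The filter averages over all libraries, so introns low in CTRL cells could pass it through these same groups. The IFI44L introns together were at 0.0718 CPM in CTRL cells of day 5, 93.5 CPM with IFN-α and 92.4 CPM after combined targeting on day 5. These counts are therefore not independent of the filter, and the shares of all introns are no fair measure for them. In hnRNPC-targeted cells of day 5, 3 of the 22 rose (4.64% of all introns), all in MX1. They lie at chr21:42802536-42803976 (1.79 ± 0.58; edgeR, adjusted p = 0.0163), chr21:42821223-42823093 (1.13 ± 0.35; 0.0138) and chr21:42824797-42830454 (1.25 ± 0.42; 0.0236) in GRCh37. MX1 gene counts rose by 1.00 ± 0.18 on the log2 scale in the same comparison, and introns of 1 gene are not separate cases. Whether these introns rose beyond the gene was not tested. With a replicate block 4 of the 22 were called. None was called without replicate 2 of CTRL cells of day 5 or replicate 3 of hnRNPC-targeted cells of day 5.

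Intronic reads as a share of the sum of intronic and gene reads fell, stayed or rose, depending on the gene. Introns were gene intervals without APPRIS exons, whereas gene reads covered all annotated exons. Reads in exons outside APPRIS transcripts can thus be in both counts, in a part that was not measured. In MX1 the mean share was 30.7% ± 5.0 in CTRL cells of day 5 and 13.0% ± 0.07 in ADAR+hnRNPC-targeted cells (SD, n = 3), while intronic MX1 reads went from 2.49 to 338 CPM. In RSAD2 it was 44.1% ± 4.4 and 14.8% ± 1.8, and in IFI27 51.0% ± 2.7 and 12.9% ± 0.28. The RSAD2 intron at chr2:7005828-7017795 overlaps CMPK2, which averaged 24.4 CPM in CTRL cells of day 5, where RSAD2 averaged 8.06 CPM. Reads of CMPK2 may therefore be part of the RSAD2 share, which was not tested. In IFI44 it was 26.4% ± 3.6 and 33.5% ± 0.89, and in IFI6 7.88% ± 0.72 and 15.1% ± 0.94. With IFN-α, against CTRL cells of day 4, the share was 13.3% ± 1.9 in MX1, 29.5% ± 2.7 in IFI44 and 8.98% ± 1.6 in IFI6, where CTRL cells had 30.4% ± 5.5, 28.3% ± 10.3 and 8.62% ± 2.3. In hnRNPC-targeted cells of day 5 the MX1 share was 23.8% ± 4.5, beside 30.7% ± 5.0 in CTRL cells of that day.

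Editing cluster–rich regions (ECRs), where many sites of A-to-I editing lie close together, overlapped 1 of the 10 genes. MX1 held 3 of them, which the table places in GRCh37 at chr21:42798864-42800978, chr21:42818756-42821653 and chr21:42827788-42829891. Their mean levels rose with the gene, from 0.466, 0.581 and 0.0225 CPM in CTRL cells of day 4 to 128, 212 and 6.47 CPM with IFN-α. In CTRL cells of day 5 they were at 0.728, 0.853 and 0.0495 CPM, and in ADAR+hnRNPC-targeted cells at 251, 358 and 9.05 CPM. The study adds flanking sequence to these regions, and chr21:42818756-42821653 spans the exon between the introns at chr21:42818069-42821063 and chr21:42821223-42823093. Its 212 and 358 CPM are above all MX1 introns together, at 191 CPM with IFN-α and 338 CPM after combined targeting on day 5. Exon reads of MX1 are thus part of its level, in a share that was not measured.

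The table of single editing sites of study 1 held 152 sites in MX1, 7 in XAF1 and 5 in IFI6, and none in the other 7 genes. Of the MX1 sites, 112 had a value in every library, all within introns of the canonical transcript, and the edited share was pooled over these per library. IFN-α–treated cells had 17.7% ± 2.96 edited reads (SD, n = 3; range, 15.6–21.1%; 1250 of 7335 reads), and ADAR+hnRNPC-targeted cells of day 5 had 8.72% ± 0.73 (range, 7.88–9.21%; 1500 of 17202 reads). The groups did not overlap, and their difference of 8.97 percentage points had a two-sided exact permutation p = 0.1, which is the smallest that 3 against 3 libraries allow. The study kept a site only with a minimum of reads and of editing in a library without ADAR targeting. Among groups without ADAR gRNA, the most reads at the MX1 sites after the 7335 with IFN-α were 116, in hnRNPC-targeted cells of day 5. The choice of sites thus favours those edited in IFN-α–treated cells, and the test does not allow for it. In every other group of study 1 the MX1 sites were covered by at most 949 reads, and the intervals were correspondingly wide. At the sites of XAF1 and IFI6, ADAR+hnRNPC-targeted cells of day 5 had 1.41% ± 0.51 (26 of 1837 reads) and 1.86% ± 0.62 (31 of 1649 reads), beside 1.53% ± 1.44 (20 of 1060 reads) and 2.23% ± 1.99 (22 of 736 reads) with IFN-α, and the groups were not tested against each other. Only ADAR+hnRNPC-targeted cells received ADAR gRNA in this pair, and their day of harvest also differed.

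**Figure D4:**
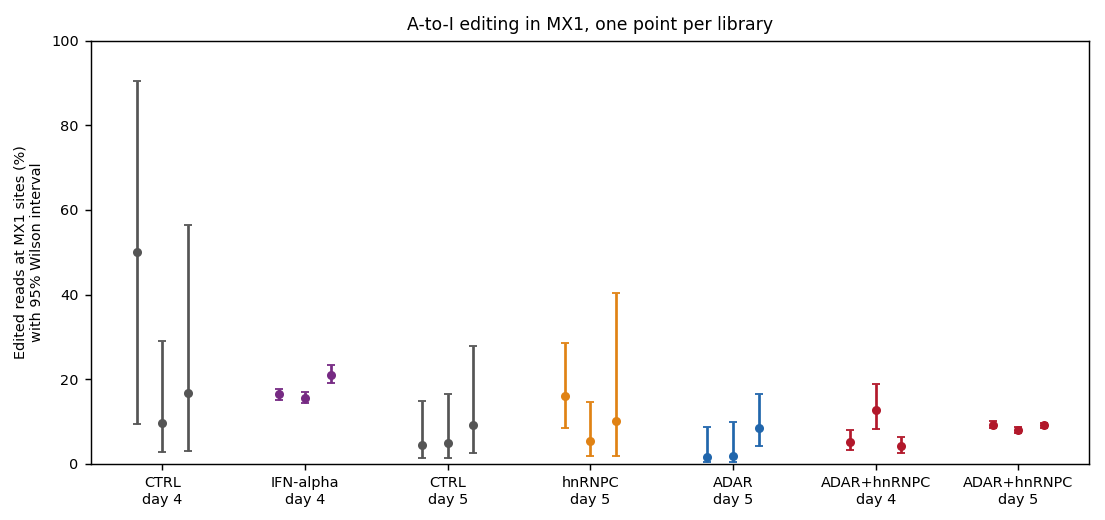
Percent of edited reads at the MX1 editing sites of study 1, with 1 point per library and its 95% Wilson interval, in 7 groups of days 4 and 5. IFN-α–treated libraries (15.6–21.1%) lie above the ADAR+hnRNPC-targeted libraries of day 5 (7.88–9.21%), and CTRL libraries have intervals too wide to order. Intervals cover counting error only, and not the choice of sites by their editing in libraries without ADAR gRNA.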

How the data were processed

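The authors sequenced ribosome-depleted, strand-specific libraries as paired ends, aligned them to GRCh37 with STAR 2.5.4a and counted unique reads per gene (GENCODE exons), per intron (gene intervals without APPRIS exons, study 1), per ECR, and edited and total reads per A-to-I site. The deposited values are raw counts. The strand setting of the gene counting was not given in the sources used here, and multi-mapped reads were left out, which lowers counts in repeats and shared sequence. All libraries of a study entered 1 fit, with a coefficient for each group, by the quasi-likelihood test of edgeR 4.0.16 (R 4.3.3), with TMM factors, an average log2 CPM of at least 0.5 (introns, 1, with library sizes from genes) and Benjamini-Hochberg adjustment over all features tested. Interactions used the 12 libraries of a day. SEs are the log2 fold change divided by the square root of the F statistic. The study used voom and limma on the same design. Alternatives were voom (limma 3.58.1), DESeq2 1.42.0, no filter, no fold threshold, a replicate block, only the groups compared, GFP-targeted cells as control, and each library left out. The scripts were tested on simulated counts. All 10 genes are named, and the 44 pathway genes come from a list. The genes and lists were chosen with earlier results of these data known.

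Same-numbered libraries of 2 groups deviated together in part (r from -0.217 to 0.748 in study 1 and from -0.212 to 0.445 in study 2). In study 1, every pair was over 0.1 for the comparisons with CTRL cells of ADAR (days 4 and 5), hnRNPC (days 4 and 5), ADAR+hnRNPC (days 3 and 4) and GFP (days 4 and 5). There a replicate block changed no count of genes. No libraries were duplicates (at least 12.1 chi-square units per gene between replicates). Gene IDs were matched to symbols for 55538 of 57820 rows, and coordinates were read from a GRCh37 GENCODE annotation later than that used for counting. Some single genes of the marker and pathway lists are not reported here.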

Additional observations from a re-analysis of the deposited data

Results flagged for a closer look

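The response to ADAR+hnRNPC targeting differed between days by a test of the difference, for 10 of the 10 genes from day 3 to day 4 and for 10 of the 10 from day 4 to day 5.

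In ADAR-targeted cells, the response of day 5 exceeded that of day 3 by 2.74 ± 0.57 (log2, SE) for IFI44 (edgeR, adjusted p = 0.0293) and by 1.84 ± 0.27 for MX1 (adjusted p = 0.000361). All 3 libraries of day 5 lay above their CTRL libraries in both genes, as in 19.5% of all genes. In hnRNPC-targeted cells, the same difference was 3.11 ± 1.2 for IFI44L (adjusted p = 0.0299) and 0.96 ± 0.27 for MX1 (adjusted p = 0.00323), and IFI44L was also higher with GFP gRNA on day 5.

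In the WT clone, the response of IFI6 to ADAR+hnRNPC targeting was larger by 1.92 ± 0.51 in cytosolic than in total RNA (edgeR, adjusted p = 0.0485), with 2 libraries per group. Libraries of these groups of 2 or 3 were not tested as outliers.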

How the results depend on the processing

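Of 196 counts of effectors or introns recomputed under other settings, 173 were within 1.5 times the value reported. Without the fold threshold, counts became 7 for ADAR on day 5, 2 and 5 for hnRNPC on days 4 and 5, and 2 for cytosolic against total RNA. With voom they became 0 for hnRNPC on day 4, GFP on day 5, both day 3 to day 5 differences and the cytosolic minus total difference, and 1 for introns with hnRNPC. DESeq2 gave 4 for the ADAR day 3 to day 5 difference. Without the filter, that difference gave 6, the hnRNPC day 3 to day 5 difference 5, and WT hnRNPC total and cytosolic RNA 2 and 1. GFP-targeted controls gave 0 for hnRNPC on days 4 and 5. With only the groups compared, the hnRNPC difference gave 4 and the cytosolic minus total difference 0. An intron filter of 0 gave 47 introns with IFN-α, 5 with hnRNPC and 47 with ADAR+hnRNPC. The cause of these changes was not tested.

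Leaving out 1 library at a time gave 0 to 1 for hnRNPC on day 4, 1 to 4 on day 5, 1 to 3 for the ADAR and the hnRNPC day 3 to day 5 differences, 0 to 6 for WT ADAR total RNA, 1 to 3 for cytosolic against nuclear RNA, 0 to 1 for the cytosolic minus total difference and 0 to 3 for introns with hnRNPC. The difference between ADAR+hnRNPC on day 5 and IFN-α changed sign for IFI44L with voom (-0.0811), DESeq2 (-0.0138), no filter (-0.0545) and without replicate 2 of CTRL cells of day 4 (-0.40), replicate 3 of CTRL cells of day 5 (-0.16) or replicate 3 of ADAR+hnRNPC-targeted cells of day 5 (-0.29), and for IFI44 without replicate 3 of CTRL cells of day 5 (0.062). With 1 library left out it ranged from -0.40 to 0.23 for IFI44L and from -0.45 to 0.062 for IFI44, in no case called.

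A replicate block gave 3 for the ADAR day 3 to day 5 difference, 4 for that of hnRNPC, 8 for ADAR+hnRNPC minus IFN-α on day 5 (MX1 added), 7 for WT ADAR total RNA (IFI6, IFI44L and IFI27 added, CMPK2 and XAF1 lost), 8 for WT ADAR cytosolic RNA (IFI27 added), and 4 introns with hnRNPC. Same-numbered libraries of hnRNPC-targeted and CTRL cells of day 5 and of both WT ADAR comparisons correlated over 0.1, the latter with only 2 pairs each. In the other comparisons named, some pair did not. In all, 40 of 48 and 16 of 18 libraries were most like their own number. A crossed block, added after seeing the data for WT hnRNPC total RNA and for cytosolic against nuclear RNA, left 0 and 2 calls. The low counts of IFI44L, IFI27 and IFI44 in CTRL cells limit the precision of their fold changes. In study 1 these genes were at or below 0.684 CPM in every CTRL library and passed the filter through the groups in which they were high.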
